A study of Mus musculus with 6 samples.

Results

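MicroRNAs (miRNAs) are short RNAs cut from hairpin precursors by the nucleases Drosha and Dicer, and loaded into Argonaute proteins they repress transcripts that pair with their seed, the bases near the 5′ end. The registry miRBase numbers them roughly in the order in which they are submitted, so consecutive numbers need not mean related sequences, and entries are withdrawn when the evidence for a hairpin precursor does not hold up. Here 6 names of one such numbered run were followed: mmu-miR-2132, mmu-miR-2133, mmu-miR-2134, mmu-miR-2135, mmu-miR-2137 and mmu-miR-2138. They are 6 of the 690 mouse miRNA names on the array and were found by the name printed for each spot in the scanner files. They were chosen by name and on their measured signal, because several of them had been seen to be high in the hypertrophic zone, so every comparison with that zone below is a description without a test.

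The working description of the 6 as names with no current mouse gene held for 5 of them. The RefSeq miRNA table of mouse build GRCm38.p6 has no entry for miR-2132, miR-2133, miR-2134, miR-2135 or miR-2138, and no sequence is shown for them. It does list miR-2137, on the plus strand of chromosome X, and the gene Zfp185 spans the site. The hairpin lies at chrX:72992079-72992144 and the mature sequence at chrX:72992113-72992133. The array itself was designed on an older build, mm9 per the file headers, and no coordinate of the array was used. The mature sequence is shown first, 5′ to 3′ with the seed (bases 2 to 8) in capitals, as the only sequence that can be tied to a member. Below it are the mature sequences of miR-2136 and miR-2139, neighbouring numbers that RefSeq also lists (miR-2136 at chr9:104426163-104426183, plus strand, and miR-2139 at chr4:139967531-139967554, minus strand).

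miR-2137: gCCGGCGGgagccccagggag

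miR-2136: cUGGGUGUugacugagaugug

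miR-2139: aGCUGCGCugcuccugguaacugc

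The 3 seeds differ. miR-2137 is 21 bases long with a GC content of 85.7%, higher than that of 99.5% of the 1679 mature mouse sequences in the table (median 52.2%), and 0 others share its seed. In its hairpin of 66 bases, shown with the mature part in capitals to place it in its precursor, it occupies bases 35 to 55.

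Mir2137 hairpin: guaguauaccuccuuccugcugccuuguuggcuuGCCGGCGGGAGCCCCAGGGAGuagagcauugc

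Signals came from 6 one-colour Agilent arrays of microdissected femoral growth plate cartilage from C57BL/6 mice aged 12 days. There were 2 arrays each for the proliferative zone, where chondrocytes divide in columns, the prehypertrophic zone, where they leave the cell cycle, and the hypertrophic zone, where they enlarge beside vessels and forming bone. Each array received 100 ng of total RNA from a pool of 5 growth plates. No genotype or treatment is labelled, and the labels do not tie pools to animals, so the spread between 2 arrays, and any p-value drawn from it, may be partly technical although the submitters call the hybridizations independent. In such dissected tissue, fewer cells of a type and less RNA per cell cannot be told apart. The arrays shared a slide, and 24.2% to 27.9% of their 13800 miRNA spots were well above background, the scanner software's flag. On that slide the hypertrophic arrays occupied row 1 and the prehypertrophic ones row 2, whereas the proliferative arrays were split between the rows. Of the 6 chondrocyte miRNAs on the marker list, miR-140, miR-140*, miR-455 and miR-455* were well above background on all 6 arrays, miR-675-3p on the proliferative and prehypertrophic arrays and on 0 hypertrophic arrays, and miR-675-5p on none. The 4 skeletal muscle miRNAs of the list were well above background on none.

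All 6 names were well above background on all 6 arrays, so each level below is a measurement and not a bound. Levels are log2 of the processed spot signal divided by the array's 75th percentile over the probes that were well above background everywhere. The lowest usable level was 3.66 on that scale. A miRNA's level is read from the brightest of its probes. Because probes differ in how well they bind, the level of one name is not compared with that of another.

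The largest hypertrophic signal relative to the other zones among the 6 belonged to miR-2132. Its log2 signal was 8.52 and 8.96 on the proliferative arrays, 8.58 and 8.86 on the prehypertrophic arrays, and 10.64 and 10.52 on the hypertrophic arrays. Both hypertrophic arrays thus lay above the 4 others, with a gap of 1.57 to the nearest, while the other zones overlapped. The hypertrophic mean of 10.58 ± 0.08 (SD, n = 2) was 3.59-fold the proliferative mean of 8.74 ± 0.31 (SD, n = 2; log2 difference 1.84, SE 0.27 from limma) and 3.63-fold the prehypertrophic mean of 8.72 ± 0.20 (SD, n = 2; 1.86, SE 0.27). Among the 226 miRNAs that entered the test it ranked 5 in the first of these differences and 2 in the second.

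miR-2137, the name with a RefSeq entry, followed the same order at a dim level. Its log2 signal was 5.22 and 5.61 on the proliferative, 5.31 and 5.41 on the prehypertrophic, and 6.79 and 6.37 on the hypertrophic arrays. Again both hypertrophic arrays stood above the rest, here by 0.76, and the other 4 were interleaved. The hypertrophic mean was 2.24-fold the proliferative (log2 difference 1.16, SE 0.27) and 2.32-fold the prehypertrophic mean (1.21, SE 0.27). With the normexp background correction these log2 differences were 0.49 and 0.63.

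miR-2138 was 10.88 and 11.26 on the proliferative, 10.87 and 11.05 on the prehypertrophic, and 12.17 and 11.85 on the hypertrophic arrays. The lower hypertrophic array exceeded the highest other array by 0.60. This corresponds to 1.92-fold against the proliferative (log2 difference 0.94, SE 0.27) and 2.07-fold against the prehypertrophic zone (1.05, SE 0.27).

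For miR-2133 the difference was smaller relative to the spread of its arrays. Its signal was 7.32 and 7.84 on the proliferative, 7.43 and 7.89 on the prehypertrophic, and 8.16 and 8.37 on the hypertrophic arrays. The hypertrophic arrays lay on top by 0.27, less than the 0.51 that separated the 2 proliferative arrays. The log2 difference was 0.68 (SE 0.29) from the proliferative and 0.61 (SE 0.29) from the prehypertrophic zone. Without the first proliferative array the former was 0.43, and without the first prehypertrophic array the latter was 0.40. With the 75th percentile taken over all probes, and in the authors' deposited table, the hypertrophic arrays no longer both lay above the other 4.

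miR-2135 lay at 8.25 and 8.78 on the proliferative, 8.34 and 8.55 on the prehypertrophic, and 8.93 and 8.87 on the hypertrophic arrays. Its hypertrophic arrays cleared the second proliferative array by 0.09 only, against 0.53 between the proliferative arrays. The log2 differences from the other zones were 0.38 and 0.46 (SE 0.27 each). Leaving out the first proliferative array brought the former to 0.11, and leaving out the second brought it to 0.72.

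miR-2134 was the exception in the order of its arrays. Its signal was 9.31 and 9.77 on the proliferative, 9.32 and 9.54 on the prehypertrophic, and 9.81 and 9.53 on the hypertrophic arrays. The second proliferative array exceeded the second hypertrophic array, so the zones overlapped. The hypertrophic mean was 0.12 log2 units above the proliferative mean (SE 0.27, 95% interval -0.48 to 0.73) and 0.24 above the prehypertrophic mean (SE 0.27, interval -0.37 to 0.84). The former turned to -0.11 without the first proliferative array and to -0.01 without the first hypertrophic array, and was 0.42 without the second proliferative and 0.27 without the second hypertrophic array. Leaving out the first hypertrophic array brought the latter to 0.10, leaving out the second brought it to 0.38, and leaving out the first prehypertrophic array brought it to 0.15.

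**Figure D1:**
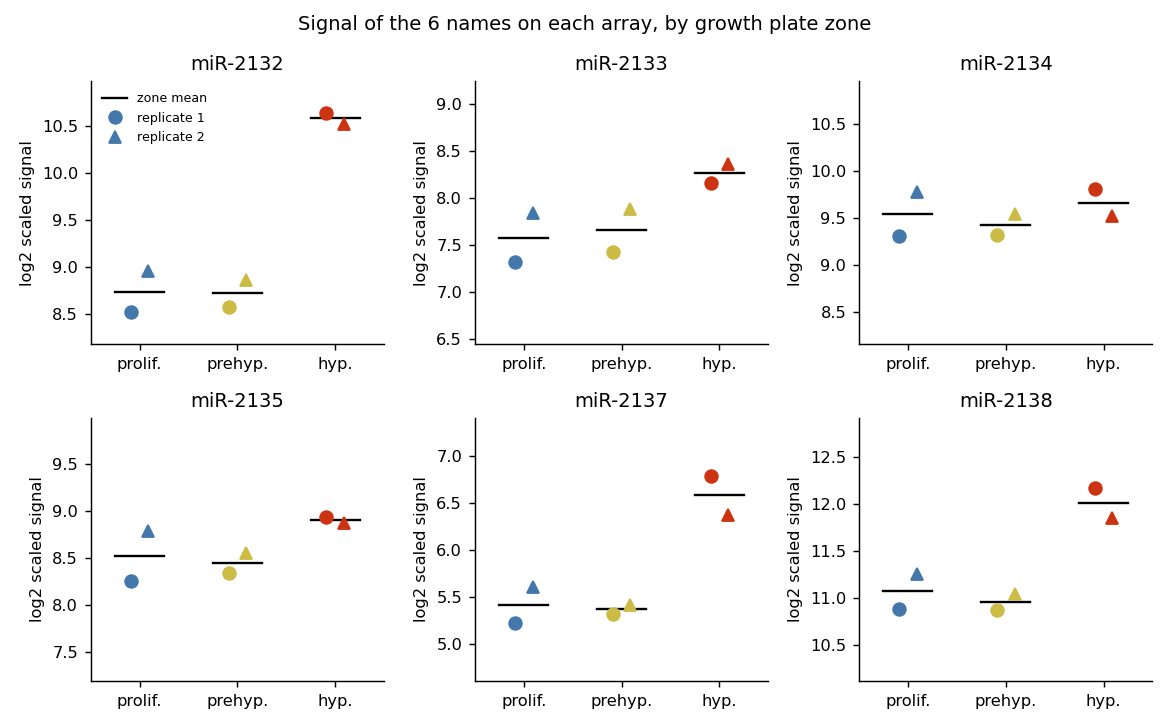
Log2 scaled signal of each of the 6 names (y axis, each panel spanning the same range) on the 2 arrays of each zone (x axis; circle for replicate 1, triangle for replicate 2, black line for the zone mean). In 5 panels both hypertrophic arrays lie above the other 4, by 1.57 for miR-2132 and 0.09 for miR-2135, and in the miR-2134 panel the zones overlap.

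By the order of their arrays, 5 of the 6 names were thus higher together in the hypertrophic zone, to unequal degrees, and miR-2134 was not. For these 5, both hypertrophic arrays lay above the other 4, a pattern found in 33 (14.6%) of the 226 tested miRNAs. The intervals of the differences did not set miR-2134 apart in this way. Those of miR-2135 also reached negative values, at -0.22 to 0.99 from the proliferative and -0.15 to 1.06 from the prehypertrophic zone. So did that of miR-2133 from the prehypertrophic zone (-0.04 to 1.25), but not from the proliferative zone (0.04 to 1.33). For miR-2132, miR-2137 and miR-2138 both intervals were positive throughout. Against the proliferative arrays alone, the hypertrophic arrays were higher without overlap for 5 of 6 names, against 19.9% of tested miRNAs. Against the prehypertrophic arrays alone, the count was also 5 of 6, against 34.1%. The median log2 difference over the 6 names was 0.81 from the proliferative and 0.83 from the prehypertrophic zone, and over all tested miRNAs it was 0.00 and -0.04. Both comparisons share the hypertrophic arrays, and since the names were chosen for this pattern the counts lend it no support. The same holds for the intervals, which describe the spread and are not a test of any name.

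The first step between zones, from proliferative to prehypertrophic, was not what the names were chosen for and was tested with limma. These zones were nonetheless what the high hypertrophic signal was seen against, so the test is not fully independent of the choice. None of the 6 differed past the threshold. The log2 differences were -0.02 for miR-2132, 0.08 for miR-2133, -0.11 for miR-2134, -0.07 for miR-2135, -0.05 for miR-2137 and -0.11 for miR-2138, with limma adjusted p-values of 0.918 to 0.991. All 6 names had overlapping arrays in these zones, where 36.3% of tested miRNAs did not overlap, and 5 of the 226 (2.21%) passed the threshold. At an unadjusted p under 0.05 the counts were 0 of 6 names and 29 of the 226. The 95% intervals of the 6 differences reached from -0.72 to 0.72, so changes of up to about this size at this step are not excluded by 2 arrays per zone.

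**Figure D2:**
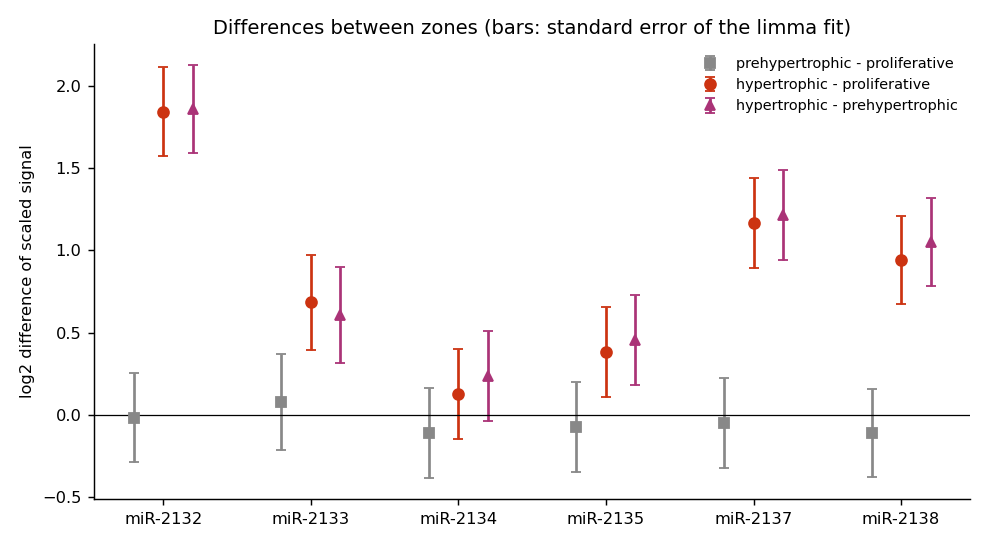
Log2 difference between zones (y axis) for each name (x axis); squares, circles and triangles mark the 3 pairs of zones and bars the standard error of the limma fit over 6 arrays. The prehypertrophic minus proliferative differences lie between -0.11 and 0.08, and the hypertrophic differences from 0.12 for miR-2134 to 1.86 for miR-2132.

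**Figure D3:**
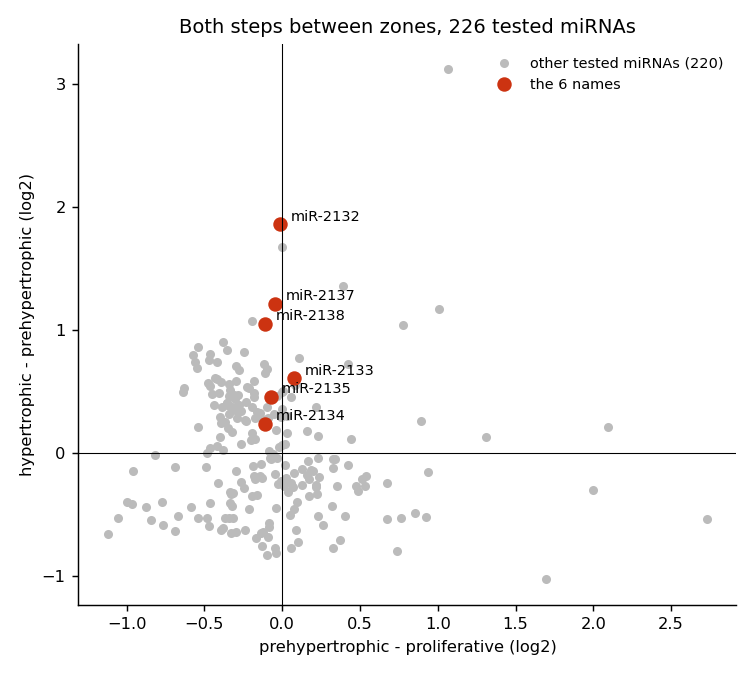
Prehypertrophic minus proliferative (x axis) against hypertrophic minus prehypertrophic difference (y axis), both on the log2 scale, for the 226 tested miRNAs; the 6 names are red. Both axes use the prehypertrophic arrays. The 6 names sit close to 0 on the x axis and at 0.24 to 1.86 on the y axis.

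Agreement between probes was examined next, since each name is read by 2 probes (miR-2135 by 3), 13 in all, on 20 spots per array. Every one of these 13 probes was well above background on all arrays. The spots of one probe on one array, 5 to 10 after outliers were left out, had coefficients of variation of 1.75% to 17.6% (median 6.19%). Both hypertrophic arrays lay above the other 4 for 11 of the 13 probes, against 13.2% of the 342 probes well above background on all arrays. The 2 exceptions were the 2 probes of miR-2134. Probes of one name share their target and their arrays, so they are not replicates of a zone. Since the names were chosen for this pattern, the count of probes lends it no support.

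The probes agreed in direction and differed in size. For miR-2132 the hypertrophic minus proliferative difference was 1.84 by the brighter and 1.34 by the dimmer probe. Both probes of miR-2133 gave 0.68, and those of miR-2134 gave 0.12 and 0.16. For miR-2138 the values were 0.94 and 0.78. For miR-2137 the dimmer probe, at 4.27 to 5.40 on the log2 scale and so nearest to the floor, gave 0.63 against 1.16. miR-2135 went the other way: its brightest probe gave 0.38 and its dimmer probes 0.85 and 0.70, so that the value reported above is the smallest of its 3. Over the 6 arrays the probes of one name correlated at 0.919 (miR-2134) to 0.996 (miR-2138). Different names correlated at 0.58 to 0.996, and miR-2137 with miR-2138 (0.996) exceeded the 2 probes of miR-2137 (0.952). High correlations thus need not come from a shared target.

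**Figure D4:**
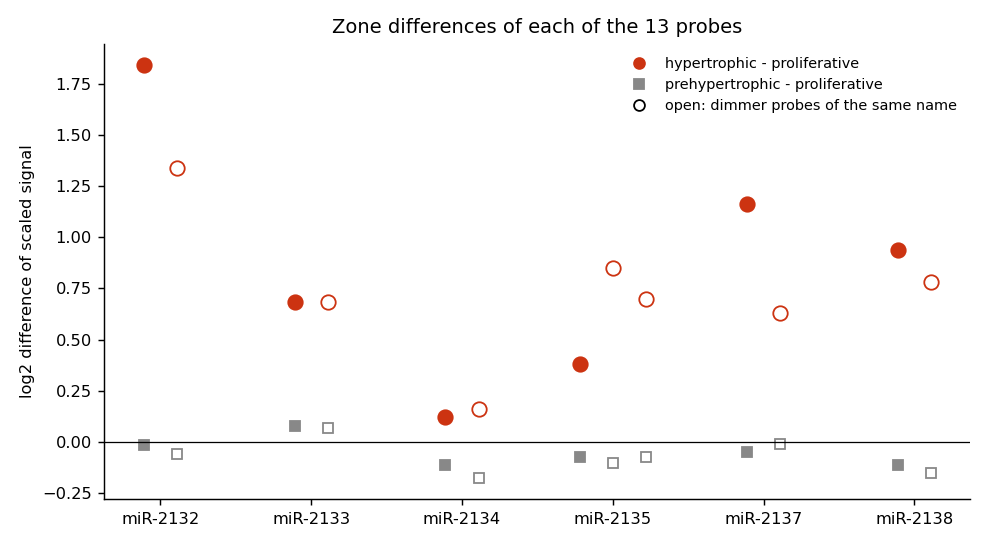
Log2 difference of each of the 13 probes (y axis), grouped by name (x axis); red circles show hypertrophic minus proliferative, grey squares prehypertrophic minus proliferative, filled for the brightest probe and open for the others. Every circle lies above 0, from 0.12 for miR-2134 to 1.84 for miR-2132, and the squares of the brightest probes lie between -0.11 and 0.08.

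Arrays of one zone also differed in the signal of the names. The sample titles are numbered 13 to 18, and each run of 3 numbers holds 1 array per zone; no label calls a run a batch. In the proliferative zone all 6 names were higher on the array numbered 16 than on that numbered 13, by 0.37 to 0.53 log2 units, where 54.9% of tested miRNAs were higher and their median difference was 0.11. In the prehypertrophic zone all 6 were higher on array 17 than on array 14, by 0.10 to 0.46, as were 67.7% of tested miRNAs (median 0.11). In the hypertrophic zone 5 of 6 were higher on array 18 than on array 15, by up to 0.42, and miR-2133 differed by -0.21, where 54.0% of tested miRNAs were higher (median 0.05).

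Comparing zones within each run left the order of the names nearly as it was. The hypertrophic minus proliferative difference of miR-2132 was 2.003 in the first run and 1.68 in the second, that of miR-2137 1.15 and 1.18, and that of miR-2138 0.97 and 0.91. For the other 3 the second run gave less: 1.05 and 0.32 for miR-2133, 0.62 and 0.14 for miR-2135, and 0.22 and 0.03 for miR-2134. Within slide row 1, which held both hypertrophic and the first proliferative array, the differences were larger than over all arrays, at 2.06 for miR-2132, 1.36 for miR-2137, 1.13 for miR-2138, 0.94 for miR-2133, 0.65 for miR-2135 and 0.36 for miR-2134. The 2 proliferative arrays are the only arrays of 1 zone that lay in different rows, and there all 6 names were lower in row 1, by 0.37 to 0.53. This is the same pair, numbered 13 and 16, that differed between the runs. Row, run and the ordinary spread between arrays cannot be told apart in it. In the step from the prehypertrophic to the hypertrophic arrays, row and zone cannot be told apart. With row as a block in the fit, that step came to 2.30 for miR-2132, 1.60 for miR-2137, 1.43 for miR-2138, 1.12 for miR-2133, 0.99 for miR-2135 and 0.70 for miR-2134, each larger than without the block. The row term rests on the proliferative pair alone. The larger values, here and within row 1, thus restate the difference of that pair and add no evidence. The array's own control probes were read in the same way. For 0 of the 9 controls well above background on all arrays did both hypertrophic arrays lie above the other 4. Their hypertrophic minus prehypertrophic differences ran from -0.35 to 0.03, and their hypertrophic minus proliferative differences from -0.46 to 0.26. What part the place on the slide had in the signal of the names was not tested.

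The names were also compared by their pattern across the arrays. Over the 15 pairs, Pearson's r across the 6 arrays ran from 0.58 (miR-2132 with miR-2134) to 0.996 (miR-2137 with miR-2138), with a median of 0.87. These values describe 6 arrays that share scaling and zone, and since the names were chosen for high signal on the same 2 arrays, a high correlation among them follows largely from that choice. miR-2132, miR-2137 and miR-2138 were each among the 3 miRNAs most like one another (r = 0.982 to 0.996). The non-members most like them were miR-135a* (r = 0.98 with miR-2137 and 0.99 with miR-2138), at 4.14 and 4.47, 4.16 and 4.23, and 4.99 and 4.71 on the arrays of the 3 zones, and miR-183 (r = 0.98 with miR-2132), which lay at the floor on the 4 arrays outside the hypertrophic zone. For miR-2133 they were miR-2141 (r = 0.98), miR-2144 (0.97) and miR-709 (0.96). For miR-2135 they were miR-689 (0.98), miR-1187 (0.98) and miR-710 (0.96), and for miR-2134 they were miR-184 (0.98), miR-1896 (0.97) and miR-718 (0.96). So none of the 3 nearest miRNAs of miR-2133, miR-2134 or miR-2135 was another of the 6 names.

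Other names without a RefSeq entry offer a setting for these values. Of the 690 names, 46 were matched to no entry, and 27 of these entered the test, 5 of them members. Matching was by name, so some of the 46 may have an entry under another name. For example, miR-1982.2 was unmatched although miR-1982* was matched. Among the 22 non-members, both hypertrophic arrays lay above the other 4 for 6 (27.3%), and the median hypertrophic minus proliferative difference was 0.09. Among the 199 tested miRNAs with an entry, this was so for 23 (11.6%), with a median of -0.06. The 6 non-members with the pattern include miR-2141, miR-2144 and miR-2145, whose numbers follow those of the members. A miRNA that entered the test through the hypertrophic zone alone has this pattern nearly built in. That applies to miR-126-3p and miR-183, at the floor in the other zones, and to miR-1957 among the names without an entry. The same limit holds for the share over all 226 tested miRNAs. The 5 largest hypertrophic minus proliferative differences among the 27 names belonged to miR-2132 (1.84), miR-2138 (0.94), miR-2133 (0.68), miR-689 (0.58, SE 0.29) and miR-2144 (0.51, SE 0.27). A difference of at least 1 was found for 1 of the 5 members without an entry, 0 of the 22 non-members and 12 of the 199 with an entry. A set of names known to match transfer RNA sequence, miR-1274a, miR-1937b, miR-1937c and miR-720, was well above background on all arrays and showed the pattern for 0 of 4. Their hypertrophic minus proliferative differences were 0.33, -0.02, -0.06 and 0.00. The difference between these sets and the 6 names was not tested. Because the 6 names were chosen for high hypertrophic signal, their places in this ranking and these counts follow largely from that choice.

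Some markers of blood and vessels had their highest signal on the same arrays. Of the 7 blood and marrow miRNAs, 2 entered the test: miR-451, an erythroid miRNA, went from 3.72 ± 0.09 in the proliferative and 4.79 ± 0.07 in the prehypertrophic to 7.91 ± 0.12 in the hypertrophic zone, and miR-223, a myeloid miRNA, from 3.71 ± 0.02 and 3.81 ± 0.22 to 4.59 ± 0.44 (SD, n = 2 each). In the proliferative zone miR-451 was well above background on 1 array and miR-223 on 0, so those means lie at or near the floor. miR-486, also abundant in red cells, had means of 3.92, 3.66 and 3.84 in the order of the zones and passed the background flag on 1 array of the proliferative zone and 1 of the hypertrophic zone. The summed scaled signal of the 7 was 26.8 to 41.1 units on the proliferative, 45.2 to 47.3 on the prehypertrophic and 262 to 290.0 on the hypertrophic arrays. Most of the hypertrophic sum was miR-451, while miR-144, miR-142-3p, miR-142-5p and miR-150 were well above background on none. The endothelial miR-126-3p was above background on both hypertrophic and on no other array, and its partner strand miR-126-5p on none. The summed signal of these 2 was 0 outside the hypertrophic zone and 34.7 to 47.2 units in it. The 6 chondrocyte miRNAs summed to 6482 to 10392 units on the proliferative, 6841 to 6939 on the prehypertrophic and 3917 to 4924 on the hypertrophic arrays. Within that list miR-455* differed, with means of 4.72, 5.58 and 5.09 in the order of the zones. The other tested chondrocyte miRNAs had lower hypertrophic than proliferative means. What part the makeup of the dissected tissue had in the signal of the 6 names was not tested.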

How the data were processed

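The deposited spot intensity is linear and background-subtracted, from Feature Extraction 10.7.3.1 per the file headers. The authors' deposited log2 table differed by at most 1.3e-06 from log2 of each miRNA's total signal less an array constant and served as an alternative.

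Outlier and control spots were left out, no spot was saturated, and unflagged spots of a probe were averaged. A probe was well above background where most of its spots carried that flag. Most of the 1928 probes were not, so arrays were scaled to the 75th percentile over the 342 that were on all arrays, then floored at 12.7 units (3.66 on the log2 scale), and log2 was taken. The brightest probe stood for a miRNA. The 226 miRNAs that were well above background throughout 1 or more zones were fitted together with limma 3.58.1 in R 4.3.3, with zone as the factor and all 6 arrays (3 residual and 7.19 prior degrees of freedom), and p-values were Benjamini-Hochberg adjusted over them at a threshold of 0.05. The fit was tested on simulated data. Background by normexp (offset 50) used median spot signals.

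The members, marker lists and tests were chosen with earlier results of these data known. Named miRNAs were the members, the 3 miRNAs most correlated with each, the tRNA-like and marker lists, and the 5 names without a RefSeq entry with the largest hypertrophic minus proliferative difference; others were named after their values were seen. Names were matched to RefSeq through symbols, synonyms and mature names. The number of arrays limits the precision.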

Additional observations from a re-analysis of the deposited data

How the results depend on the processing

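The count of names with both hypertrophic arrays above the other 4 was 4 to 6 over 17 other settings (5 as reported above). It was 4 with the 75th percentile over all probes and in the authors' deposited table, 6 without scaling, and 5 to 6 when 1 array was left out. The counts of 6 came where the pattern was more common over all miRNAs: 87 of 225 without scaling, 72 of 235 without the second proliferative and 79 of 240 without the second hypertrophic array, against 33 of 226. miR-2132, miR-2135, miR-2137 and miR-2138 showed the pattern in all 17, miR-2133 in 15 and miR-2134 in 3. Many of these settings could hardly break a pattern that already held. Changing the floor or dropping the filter left the members' values as they were. Leaving out 1 array mainly takes a value from the ordering. The 17 are therefore not separate checks of the pattern. No name passed the threshold between the proliferative and prehypertrophic zones in any of 19 settings, where 0 to 10 of all miRNAs did (5 as reported above): 10 in the authors' deposited table, 9 with a lower floor, 1 without scaling or without the first prehypertrophic array, and 0 with 2 times the floor, without a filter, or without the second proliferative, the second prehypertrophic or either hypertrophic array.

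The hypertrophic minus proliferative difference was 1.59 to 2.32 for miR-2132, 0.49 to 1.65 for miR-2137, 0.75 to 1.42 for miR-2138, 0.43 to 1.17 for miR-2133, 0.11 to 0.86 for miR-2135 and -0.11 to 0.61 for miR-2134, whose sign turned without the first proliferative or the first hypertrophic array. With slide row as a block it was larger for each name than as reported above, which restates the difference between the 2 proliferative arrays. Leaving out the second proliferative array raised the members' median from 0.81 to 1.10, and leaving out the first lowered it to 0.59. Without scaling the median of all miRNAs shifted by 0.46, and with normexp by -0.16; the members' median was then 1.29 and 0.54. The lowest value of miR-2137, 0.49, came from normexp. The cause was not tested.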

Other observations

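The numbered run goes on past the 6 names. The array also carries miR-2136 and miR-2139 to miR-2146, and these 9 were looked at after their values were seen. RefSeq lists miR-2136 and miR-2139, and neither was well above background on any array. The same held for miR-2143, which it does not list. The other 6 were well above background on all arrays and have no RefSeq entry.

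Among these 6 neighbours, both hypertrophic arrays lay above the other 4 for miR-2141, miR-2144 and miR-2145, with hypertrophic minus proliferative differences of 0.20 (SE 0.25), 0.51 (SE 0.27) and 0.27 (SE 0.27). For miR-2140 (0.14), miR-2146 (0.03) and miR-2142 (-0.22) the hypertrophic arrays overlapped the proliferative ones. Their median was 0.17. The largest, 0.51, is below those of miR-2132, miR-2133, miR-2137 and miR-2138 and above those of miR-2135 (0.38) and miR-2134 (0.12). The members were chosen for high hypertrophic signal, so higher values for them than for these neighbours follow largely from that choice.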
